A study of Mus musculus with 12 samples.

Results

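Colon libraries of a mouse study of ulcerative colitis (UC) were compared by how much of the calprotectin subunit gene S100a8 they held. Of the 12 libraries of the series, 6 are of colon, and the sets were chosen by the authors' normalized count of S100a8 in those same libraries: 3 libraries at 1000 or above (mice 1, 7 and 9) form the S100a8-high set and 3 under 100 (mice 2, 4 and 8) the S100a8-low set. All were C57BL/6 mice, male and 8 weeks old per the study's methods, which also state that the sequenced mice were selected by their disease activity index. Mice 1, 2 and 4 carry the label UC, which stands for 1.5% dextran sulfate sodium (DSS) in the drinking water for 7 days and death on day 8, and mice 7, 8 and 9 carry the label control, which stands for water without DSS over the same time. The S100a8-high set therefore holds 1 library labelled UC and 2 labelled control, and the S100a8-low set 2 labelled UC and 1 labelled control, so the sets go against the deposited labels and are named here only by S100a8. The authors' normalized tables of colon and of blood both list their libraries in the order mice 1, 7, 9, 2, 4 and 8, which is the same division, while their count table lists them by mouse number. The paper's listed colon log2 fold changes of UC against control follow this division too. For Mptx1, Fut9, Pdzd7 and Gm17322, for example, they lie close to the S100a8-high minus S100a8-low values here. Those values were -6.37, -6.05, -5.83 and -6.28. The paper's UC colon group thus matches mice 1, 7 and 9, not the mice that carry the deposited label UC. Whether the deposited disease labels are right for each mouse is therefore in doubt. The files alone do not settle which mice drank DSS. Because a readout of these libraries made the sets, every difference between them below is a description, with no p-value, and supports nothing beyond itself.

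S100a8 and S100a9 form calprotectin, a protein that neutrophils carry in bulk, and in the colon their RNA is a common marker of neutrophil entry. DSS is a detergent-like polymer that damages the lining of the large bowel, and the injured mucosa is known to recruit neutrophils and monocytes through chemokines, to release antimicrobial proteins from the epithelium, to remodel matrix and to lose functions of mature absorptive cells. The mouse colon also differs along its length: the caecal end and the anal end use different Hox genes, transporters and mucosal enzymes in health.

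Each library is 1 mouse per the labels and methods, so the spread within a set is a spread between mice. The labels state the tissue in 2 fields that oppose each other in every sample. The colon epithelial genes Krt8, Cdx1 and Vil1 were present in the 6 libraries used here. In normalized counts they ran from 303492 to 463694, from 11007 to 14615 and from 47252 to 76227. Cdx2, Car1 and Muc2 varied more, from 1216 to 12701, from 60215 to 740809 and from 151064 to 1019389. Total counts ran from 69181049 to 93226549 in the S100a8-high set and from 74123293 to 103662306 in the S100a8-low set, and 27208 to 27884 against 26449 to 27522 genes had at least 1 count. Levels below are the authors' normalized counts, in the order mice 1, 7 and 9 for the S100a8-high set and mice 2, 4 and 8 for the S100a8-low set, and they compare a gene between libraries, not one gene with another. A log2 fold change (log2FC, S100a8-high minus S100a8-low) and its standard error (SE) come from edgeR on the deposited counts, and a value after ± is that SE. In bulk tissue, more cells of a type and more RNA per cell cannot be told apart.

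S100a8 itself, the gene of the rule (GRCm38 chr3:90668978-90670035), stood at 5370.4, 1888 and 13337 in the S100a8-high set and at 33.1, 22.3 and 75.6 in the S100a8-low set. The library nearest the cut-off from above was mouse 7 and the nearest from below was mouse 8, and no colon library lay between. S100a9 stood at 5434, 2137 and 18061 against 16.5, 31.3 and 129.8. Lcn2, a siderophore-binding protein of neutrophils and inflamed epithelium, stood at 1248, 1208 and 9155 against 96.7, 99.8 and 117. Mouse 9 was the highest for all 3 genes, and mouse 7 the lowest of its set. The other neutrophil genes were used by the rule in effect and are given by counts only: 16 of 16 measured neutrophil genes had every S100a8-high library above every S100a8-low one, an arrangement that 18.0% of all fitted genes had, and their median log2FC was 5.68, or 4.04 without mouse 9. In blood libraries that carry the same mouse numbers, S100a8 stood at 88578, 37179 and 101913 in mice 1, 7 and 9 and at 14299, 11466 and 8642 in mice 2, 4 and 8, on a scale of its own. Blood Lrg1, chosen after its values were seen, stood at 12252, 2917 and 4046 against 709, 652 and 424.

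**Figure D1:**
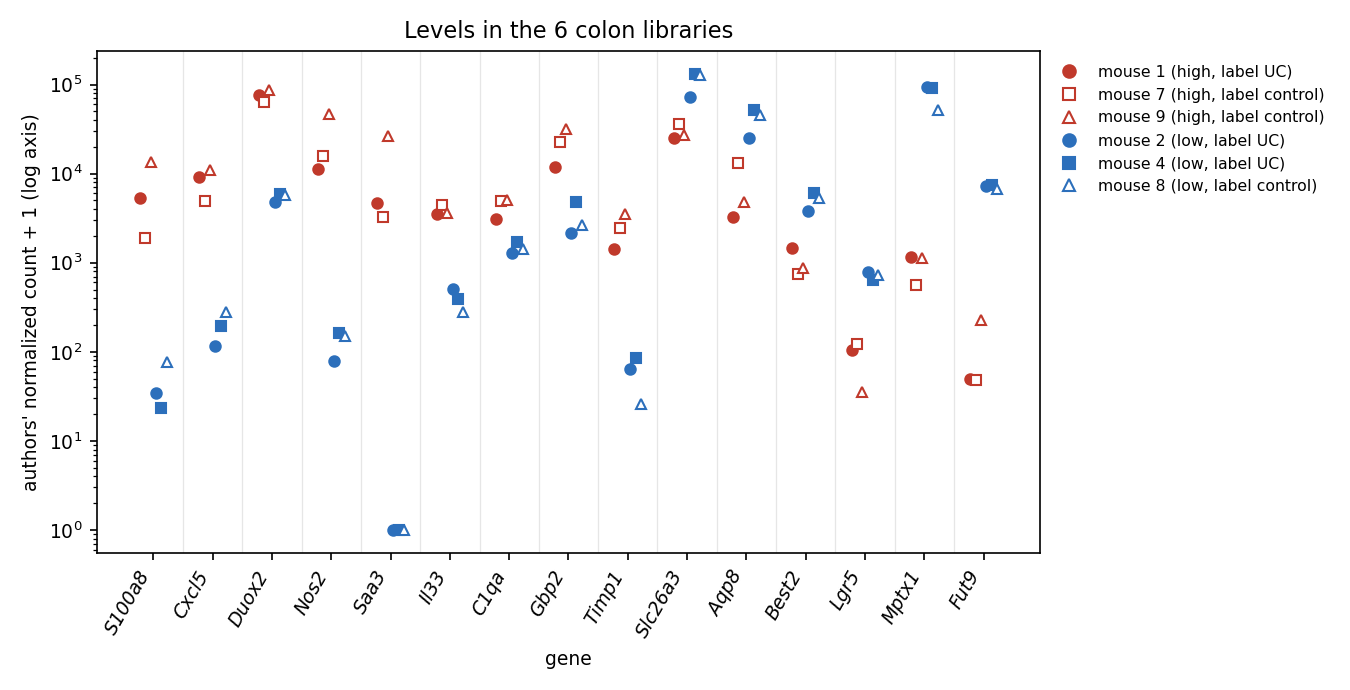
Authors' normalized count plus 1 (log axis) of 15 genes in each of the 6 colon libraries, red for S100a8-high, blue for S100a8-low, filled for label UC and open for label control. For S100a8 through Timp1 the 3 red points lie above the 3 blue ones, for Slc26a3 through Fut9 below them, and Saa3 had 0 counts in the 3 S100a8-low libraries.

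Of 22238 genes measured well enough to be fitted, 1449 (6.52%) were higher and 514 (2.31%) lower in the S100a8-high set with an adjusted p no higher than 0.05 and a log2FC of more than 1 in size, limits that serve here only to size the difference. Of these, 252 higher genes and 70 lower genes had a log2FC beyond 4 in size. Protein-coding genes made up 1294 of the higher and 396 of the lower genes, and long noncoding RNA (lncRNA) genes 51 and 67. A simpler measure, all 3 S100a8-high libraries above all 3 S100a8-low ones, held for 4003 genes (18.0%), and the reverse for 3387 genes (15.2%). These shares are the ones to read beside every list count that follows. Without mouse 9, with fewer libraries to keep apart, these were 5394 and 5212 genes of the 22238, the numbers to read beside the list counts without mouse 9 given further on. The number of genes past the limits depended on single libraries: it was 1279 without mouse 2, 447 without mouse 4, 724 without mouse 7 and 380 without mouse 8, against 1963 with all 6 libraries. Without mouse 9, which stands apart from mice 1 and 7 in ways given further on, it was 2226.

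**Figure D2:**
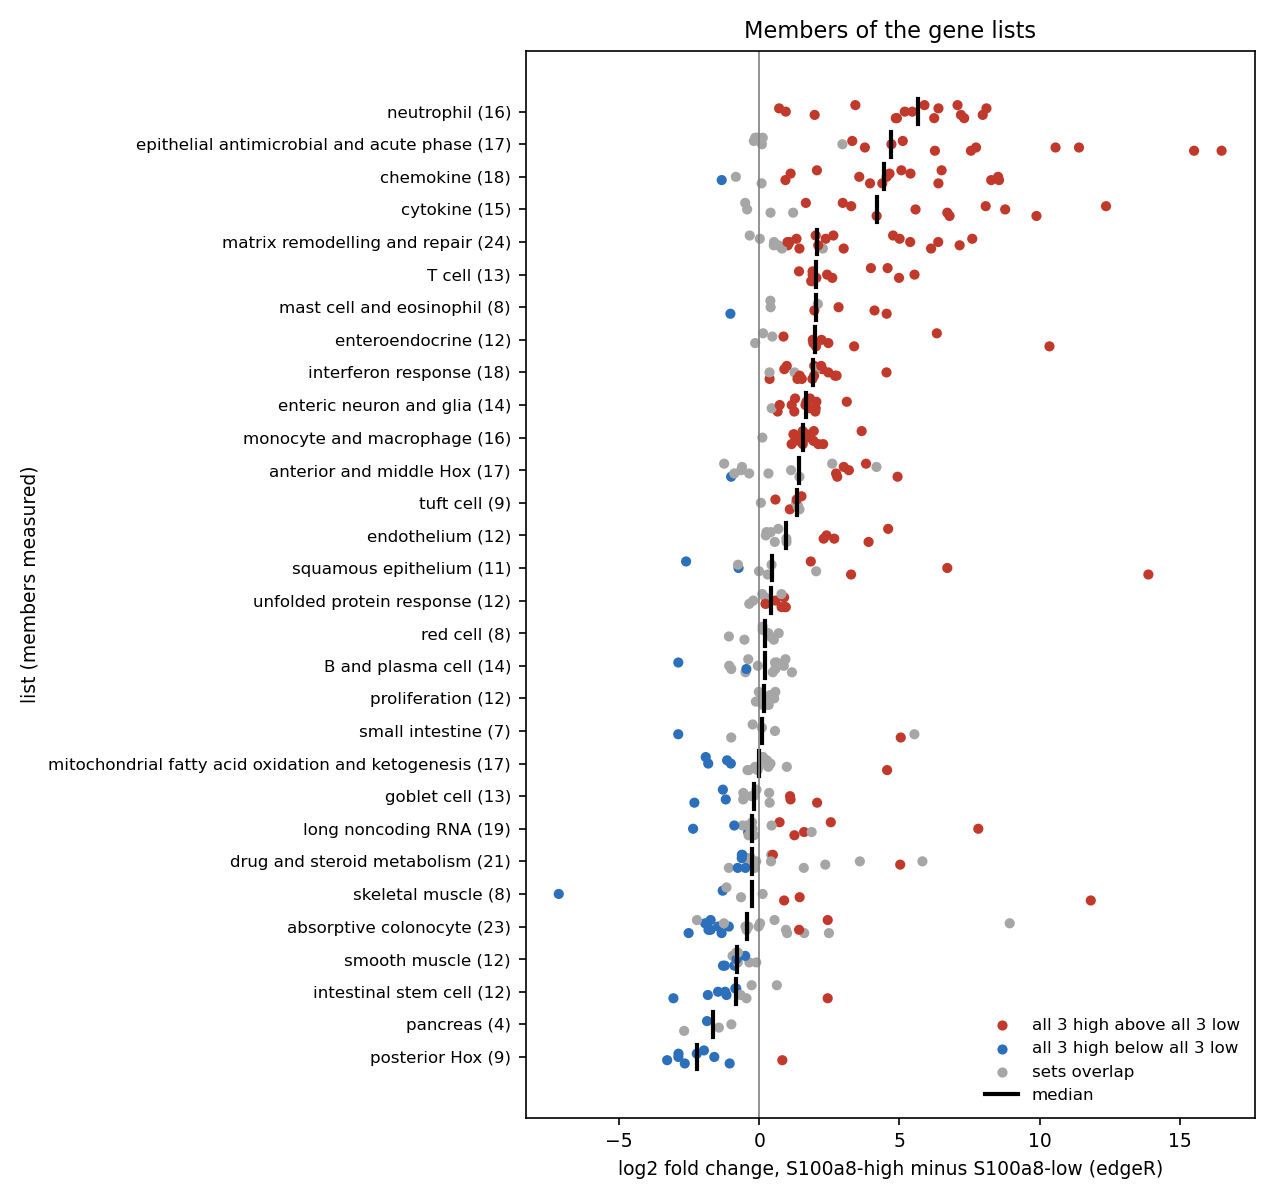
EdgeR log2 fold change of each measured member of the gene lists with at least 4 measured members, S100a8-high minus S100a8-low (horizontal axis), by list (vertical axis), with a black bar at the list's median. Red members had all 3 S100a8-high libraries above all 3 S100a8-low ones, blue members the reverse, and grey members overlapped; the median ran from -2.23 for posterior Hox genes to 5.68 for neutrophil genes.

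Cytokine genes were mostly higher in the S100a8-high set. Of 15 measured cytokine genes, 11 lay above the S100a8-low set in every S100a8-high library and 0 below it. The 11 include 3 genes with no count in the S100a8-low set. Those 3 could pass the filter on low counts only through the S100a8-high set, so their place above was fixed on entry. The median log2FC was 4.19, or 3.46 with these 3 genes placed at their lower bound, and 3.34 without mouse 9. The median over all 22238 genes was -0.02. Il6, the cytokine that drives the acute phase response, stood at 314, 173 and 1477 against 0 in each S100a8-low library, which is at least 218-fold higher when the S100a8-low libraries are set to 3 counts each. Il22, which acts on the epithelium to induce antimicrobial proteins, stood at 62.5, 137 and 150.3 against 0 in each, at least 39.1-fold higher. Both genes were absent from the counts of the S100a8-low libraries and present in every S100a8-high library, with Il6 highest in mouse 9. Il1b, made by activated myeloid cells, stood at 4138, 1361 and 13429.7 against 125, 20.6 and 31.5 (log2FC 6.71 ± 1.12). Il11 stood at 459, 116 and 2425 against 23.5, 21.4 and 16.4. Osm, a cytokine that acts on stromal cells, stood at 301, 46.8 and 659 against 26.1, 19.8 and 7.56. In Il1b, Il11 and Osm mouse 9 was the highest and mouse 7 the lowest of the S100a8-high set. Il33, an alarmin held in the nuclei of stromal and epithelial cells, was the most even of these genes, at 3479, 4389 and 3572 against 502, 393 and 277 (log2FC 3.28 ± 0.25). Il18 and Il1rn did not follow the sets. Il18, an epithelial cytokine of the interleukin-1 family, stood at 4663, 3959 and 12416 against 9937, 10999 and 8585. Il1rn, the natural antagonist of the interleukin-1 receptor, stood at 1989, 4852 and 5547 against 4255, 5554 and 6780.1.

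Chemokine genes divided the same way, 15 of 18 above and 1 below, with a median log2FC of 4.47 that was 3.46 without mouse 9. Cxcl1, which draws neutrophils through Cxcr2, stood at 914, 894 and 4549 against 24.4, 153 and 122. Cxcl2, a ligand of the same receptor, stood at 1379, 440.1 and 4398 against 0, 9.07 and 11.3. Cxcl5, a further ligand of it made by epithelium, stood at 9107, 4869 and 10986 against 117, 195 and 277 (log2FC 5.40 ± 0.46). Mouse 9 was the highest in all 3 of these genes. Ccl2, which attracts monocytes, stood at 626, 431 and 2983 against 60.1, 45.4 and 11.3. Ccl8, which does so too, stood at 2507, 3505 and 3425 against 74.9, 203 and 95.8. Ccl8 was near even within the S100a8-high set while Ccl2 was highest in mouse 9. Cxcl9 and Cxcl10, interferon-induced attractants of T cells, were also led by mouse 9, with Cxcl9 at 705, 1544 and 8817 against 17.4, 75.9 and 25.2. The exception was Ccl28, an epithelial chemokine that draws IgA plasma cells, at 6948, 5674 and 9844 against 14023, 20192 and 22140.2 (log2FC -1.34 ± 0.26). The sets overlapped for Cx3cl1, the ligand of Cx3cr1, at 1119.6, 4762 and 5012 against 7164, 1575 and 10482. They overlapped too for Ccl20, which draws cells that carry Ccr6, at 374, 120.1 and 525 against 243, 390.2 and 320.2.

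The promoters of 4 of these higher genes are shown because they hold a match to the binding consensus of NF-kappaB, a factor that drives many inflammatory genes: the 250 bases before the RefSeq start site, 5′ to 3′ on the gene's strand, on GRCm38.p6, with matches to the 10-base kappaB consensus on either strand in capitals. They are Cxcl1 at chr5:90890995-90891244 (plus strand), Cxcl2 at chr5:90903649-90903898 (plus strand), Il6 at chr5:30012864-30013113 (plus strand), and Reg3g, an antimicrobial lectin gene whose levels follow in the next paragraph, at chr6:78468875-78469124 (minus strand).
Cxcl1: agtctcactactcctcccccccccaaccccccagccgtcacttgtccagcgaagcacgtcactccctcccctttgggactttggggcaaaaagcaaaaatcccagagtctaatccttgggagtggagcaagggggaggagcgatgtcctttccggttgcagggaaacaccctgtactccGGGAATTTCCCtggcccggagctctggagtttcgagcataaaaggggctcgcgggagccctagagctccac
Cxcl2: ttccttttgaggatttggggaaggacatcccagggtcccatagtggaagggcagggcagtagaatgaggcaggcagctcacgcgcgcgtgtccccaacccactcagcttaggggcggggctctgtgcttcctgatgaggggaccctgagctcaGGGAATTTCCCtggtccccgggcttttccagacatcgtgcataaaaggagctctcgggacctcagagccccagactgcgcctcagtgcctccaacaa
Il6: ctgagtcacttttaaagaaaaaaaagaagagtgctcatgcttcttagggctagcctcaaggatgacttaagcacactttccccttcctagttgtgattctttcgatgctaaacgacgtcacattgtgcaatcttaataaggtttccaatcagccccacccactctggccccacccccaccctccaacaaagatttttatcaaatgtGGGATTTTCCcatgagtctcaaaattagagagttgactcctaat
Reg3g: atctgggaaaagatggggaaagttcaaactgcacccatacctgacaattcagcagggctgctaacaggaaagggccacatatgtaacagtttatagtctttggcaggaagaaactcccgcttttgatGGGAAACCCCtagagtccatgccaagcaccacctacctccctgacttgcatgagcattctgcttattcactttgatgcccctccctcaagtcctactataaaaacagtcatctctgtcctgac
In Cxcl1 and Cxcl2 the capitals are the same letters and hold 2 overlapping matches, 1 on each strand. The 4 were picked because they hold the match, so they carry no weight as a count. Of all 32851 RefSeq promoters, 7.25% hold a match. By gene, a match was found for 138 of the 984 genes past the limits as higher that had a promoter in the table (14.0%), 35 of 341 lower genes (10.3%) and 1388 of 13108 of all genes fitted (10.6%). A match is a string of letters and no measurement of binding.

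Genes of epithelial defence and the acute phase held some of the largest differences. Of 17 measured genes, 11 were above in every S100a8-high library and 0 below, with a median log2FC of 4.72. Among the 11, Saa3 could pass the filter on low counts only through the S100a8-high set. Saa3, a serum amyloid A gene expressed outside the liver, stood at 4701, 3256 and 26328 against 0 in each S100a8-low library, at least 3805-fold higher. Reg3b, a secreted lectin that binds bacterial walls, stood at 985376, 108204 and 5504 against 7.84, 0 and 17.6. Reg3g, of the same family, stood at 98382, 16424 and 1471 against 7.84, 31.3 and 0. Mouse 1 was the highest for both lectins and mouse 9 the lowest, while Saa3 was highest in mouse 9. Reg3b differed 179-fold between its highest and lowest S100a8-high library (normalized count + 1). The pair are related genes, and whether reads were shared between them was not tested. Nos2, the inducible nitric oxide synthase, stood at 11352, 15611 and 46979 against 77.5, 162 and 151 (log2FC 7.55 ± 0.72), highest in mouse 9. Duox2, the epithelial hydrogen peroxide source, was near even within the S100a8-high set, at 75564, 64102 and 87717 against 4818, 5980.1 and 5768 (log2FC 3.77 ± 0.19). Its maturation factor Duoxa2 stood at 12634, 9440.1 and 19303 against 508, 535 and 518. Mouse 9 was the highest in Nos2, Duox2 and Duoxa2 alike. Retnlb, a goblet cell protein with bactericidal action, stood at 9118, 6411 and 4758 against 0, 11.5 and 0. Slpi, a protease inhibitor of mucosal surfaces, stood at 10059.9, 5687 and 7516 against 149, 256 and 259.7. C3, the central complement component, stood at 48288, 24571 and 57232 against 4501, 4621 and 3817. Some abundant secretory genes overlapped between the sets. Lypd8, which keeps bacteria off the epithelium, stood at 695560.2, 516419 and 837981 against 555049.6, 853043 and 838053. Pigr, the IgA transporter, stood at 233310.1, 152809 and 201750.1 against 205579.6, 215582 and 188287. Saa1, whose reads can be shared with Saa2, stood at 48977, 28609 and 56602 against 26873, 78679 and 46927.

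Macrophage and monocyte genes were higher too, by less. Of 16 genes, 15 lay above the S100a8-low set in each S100a8-high library, with a median log2FC of 1.55. Lyz2, the myeloid lysozyme, stood at 21030, 23990.4 and 28319.7 against 7842, 11677 and 7086 (log2FC 1.46 ± 0.22). C1qa, a chain of the first complement component, stood at 3131, 4890.1 and 5013 against 1285, 1704 and 1434. Ccr2, the receptor of inflammatory monocytes, stood at 1387, 2151 and 2303 against 366, 657 and 498. Cx3cr1, the receptor of resident macrophages, was the member that overlapped, at 364, 381 and 518 against 367, 449 and 347.

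T cell genes were above in 12 of 13, with a median log2FC of 2.04. Gzmb, a granule protease of cytotoxic cells, stood at 494, 386 and 674 against 6.1, 13.2 and 13.9 (log2FC 5.54 ± 0.43). Cd8a, of cytotoxic T cells, stood at 206, 263 and 206 against 13.1, 23.1 and 5.04. Cd4, of helper T cells, stood at 263, 663 and 786 against 160.2, 167 and 127. B and plasma cell genes did not separate the sets, with 0 of 14 above, 2 below and a median log2FC of 0.21 whose sign was not stable, at -0.49 with the disease label as a term, -0.14 without mouse 7, -0.19 without mouse 8 and -0.37 without mouse 9. Ms4a1, Cd79a, Cd79b, Pax5 and Cr2, all genes of B cells, were each lowest in mouse 1 and mouse 8, one of each set. Of 8 mast cell and eosinophil genes, 4 were above and 1 below. The mucosal mast cell protease Mcpt2 stood at 97.6, 147 and 696 against 8.71, 36.3 and 7.56. The connective tissue type Cma1 stood at 63.5, 86 and 69.3 against 225, 117 and 102.

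Interferon response genes were above in 15 of 18, with a median log2FC of 1.93. Ido1, the tryptophan-degrading enzyme, stood at 3152, 4314 and 3489 against 40.1, 313 and 116 (log2FC 4.54 ± 0.70). Gbp2, a guanylate-binding protein, stood at 12019, 22416 and 31552 against 2181, 4856 and 2668 (log2FC 2.76 ± 0.43). Within the S100a8-low set, mouse 4 was the highest for Ido1, Gbp2 and Ifit1. Ifit1, which blocks translation of viral RNA, stood at 3921, 3436 and 2033 against 259, 1806 and 458.

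Matrix remodelling and repair genes were above in 17 of 24 and below in 0, with a median log2FC of 2.06 that was 1.20 without mouse 9. The stromelysin Mmp3 stood at 4778, 2879 and 33234 against 125, 108 and 49.2. Mmp10, also a stromelysin, stood at 2411, 759 and 20513 against 46.2, 31.3 and 42.9. The collagenase Mmp13 stood at 3449.6, 1376 and 27653 against 159, 148 and 149. In each of these 3 proteases mouse 9 exceeded the other S100a8-high mice several times over. Timp1, the inhibitor of these enzymes, was more even, at 1437, 2425 and 3498 against 62.7, 85 and 25.2 (log2FC 5.38 ± 0.53). The basement membrane chain Col4a1 stood at 23874, 38249.9 and 55552 against 17931, 15750.5 and 12862. Hbegf, a growth factor for epithelium, stood at 2244, 2441 and 1966 against 3438, 664 and 526. For it, mouse 2 of the S100a8-low set lay above the S100a8-high libraries.

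Endothelial genes were above in 5 of 12, where 18.0% of all fitted genes were above and 15.2% below. Selp, an adhesion molecule that binds leukocytes, stood at 603, 1227 and 1711 against 85.3, 54.4 and 95.8. Vcam1, also an adhesion molecule for leukocytes, stood at 1405, 3768 and 5544 against 709, 772 and 536. Pecam1, of endothelial junctions, overlapped, at 2358, 3785 and 3748 against 2486, 2119 and 2101. Vwf, the von Willebrand factor gene, overlapped as well, at 2976, 3786 and 4679 against 3482, 2086 and 2984. Enteric neuron and glia genes were above in 13 of 14, with a median log2FC of 1.67. Gfap, a filament of reactive glia, stood at 1472, 3326 and 1807 against 298, 228 and 229 (log2FC 3.12 ± 0.35). Nos1, of inhibitory motor neurons, stood at 3096, 3287 and 3727 against 1213, 919 and 735. Ret, a receptor that enteric neurons need, stood at 2607, 2403 and 3559 against 895, 801 and 412. Smooth muscle genes lay the other way by less, 5 of 12 below and 0 above, with a median log2FC of -0.80 and a summed level of 162997 to 439632 against 429508 to 638878. Myh11, the smooth muscle myosin, stood at 91426, 138768 and 38539.8 against 186119.6, 133009 and 137192, with mouse 9 the lowest. Muscle genes thus moved with the sets in part, and their part in the other differences was not tested.

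Absorptive colonocyte genes had no single direction: 8 of 23 lay below the S100a8-low set in each S100a8-high library, 2 above, and the median log2FC was -0.45. Without mouse 9 the list had 8 above and 8 below and a median of -0.10. Of all 22238 fitted genes, 18.0% were above and 15.2% below, or 5394 and 5212 genes without mouse 9. Lower was the chloride-bicarbonate exchanger Slc26a3, at 25107, 35702 and 27095 against 72441, 132812 and 128019.7 (log2FC -1.93 ± 0.28). The sulfate transporter Slc26a2 was lower, at 77267, 58836 and 44898 against 123414, 250726 and 224788. So was the water channel Aqp8, at 3265, 13308 and 4809 against 25439, 51237 and 45832 (log2FC -2.52 ± 0.56). In all 3 transporters mouse 2 was the lowest of the S100a8-low set. The carbonic anhydrase Car2 was lower too, at 25227, 28484 and 17431 against 84528, 86525 and 77694. The sodium channel subunits varied within the S100a8-low set, with Scnn1g at 1212, 893 and 414 against 861, 4424 and 6382, lowest there in mouse 2. Guca2a, a peptide that regulates salt secretion, and Slc9a3, a sodium-proton exchanger, were far higher in mice 1 and 7 than in the other libraries, with Slc9a3 at 28233, 24543 and 4548 against 479, 4591 and 5121.

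Goblet cell genes split. The anion channel Best2 stood at 1457, 747 and 869 against 3842, 6030.5 and 5315 (log2FC -2.31 ± 0.30). The secreted metalloprotease Clca1 stood at 162393, 113457 and 148191 against 222314, 438412 and 304206. Both were lower in each S100a8-high library. The mucin Muc2 stood at 1019389, 917317 and 242780.5 against 174587, 151064 and 193612 (log2FC 2.06 ± 0.50), far higher in mice 1 and 7 than in mouse 9, and Zg16 and Fcgbp overlapped. In all, 3 of 13 goblet genes were above and 3 below, or 5 and 3 without mouse 9. Over all fitted genes 18.0% were above and 15.2% below, so the list as a whole lay near those shares. Without mouse 9, 5394 and 5212 of all 22238 fitted genes were above and below. Stem cell genes were below in 7 of 12 and above in 1. Lgr5, the Wnt-dependent stem cell receptor, stood at 103, 123 and 34.2 against 794, 641 and 725 (log2FC -3.06 ± 0.47). Axin2, a feedback gene of Wnt signalling, stood at 457, 478 and 760.3 against 1994, 1072 and 1592. Rnf43, which removes Wnt receptors, stood at 972, 904 and 1117 against 2231, 1971 and 2701. Prom1 went the opposite way, at 88921, 58672 and 28843 against 6053, 13350.2 and 12909.7 (log2FC 2.44 ± 0.47). Proliferation genes did not separate the sets, with none of 12 above or below. Mki67, a marker of cycling cells, stood at 9577, 9826 and 35229 against 16335, 14651 and 15552, highest in mouse 9 and lowest in mice 1 and 7. Without mouse 9 the median log2FC of the list went from 0.18 to -0.75 and 10 of the 12 lay below.

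The genes furthest below were of other kinds. Mptx1, a pentraxin of the gut epithelium, stood at 1164, 565 and 1142 against 93220, 90767 and 51455 (log2FC -6.37 ± 0.41). Its near copy Mptx2 stood at 0 in each S100a8-high library against 304, 267 and 131, at least 75.3-fold lower. Fut9, a fucosyltransferase that makes Lewis x sugars, stood at 48.3, 46.8 and 229 against 7350, 7434 and 6670.4 (log2FC -6.05 ± 0.69). In these 3 genes the S100a8-high levels were a few percent of the S100a8-low ones or less. Klk15, a kallikrein protease, stood at 0 in each against 302, 506 and 668, at least 159-fold lower. Wnt8b, a Wnt ligand, stood at 2.84, 0 and 31.5 against 399, 772 and 1147. Cyp2c40, a cytochrome P450 gene, stood at 9.47, 0 and 0 against 442, 539 and 529. Cyp2c67, of the same subfamily, stood at 0, 2.53 and 2.7 against 212, 269.7 and 275. The Cyp2c genes lie in a cluster of close copies, so how reads divide among them is uncertain. Pdzd7 stood at 46.4, 27.8 and 34.2 against 1992, 1548 and 2642. The clone-named 5033404E19Rik stood at 0, 0 and 1.8 against 953, 741 and 523. In each of these genes the S100a8-low libraries were within a few fold of each other.

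Among the genes furthest above, besides those named, Prss22, a tryptase-like serine protease, stood at 839, 836 and 983 against 0 in each S100a8-low library, at least 297-fold higher. Ceacam12 stood at 614, 632 and 299 against 0 in each, at least 173-fold higher. Gml, of the Ly6 family, stood at 458, 353 and 476 against 0 in each, at least 144-fold higher. Prss22 and Gml were close to even across the S100a8-high mice. Myot, a sarcomere protein, stood at 219, 363 and 760.3 against 0 in each. Skeletal muscle genes as a list had no single direction. Ckm, the muscle creatine kinase, stood at 649, 754 and 66.6 against 897, 714 and 691. Myh2, a fast fibre myosin, stood at 2.84, 0 and 0 against 239, 209 and 31.5. Il5ra, the receptor chain for interleukin-5, stood at 2664, 1848 and 2159 against 9.58, 23.1 and 0 (log2FC 7.56 ± 0.78). Sptssb, a subunit of the enzyme that starts sphingolipid synthesis, stood at 20021, 14269.6 and 2729 against 0, 4.12 and 0.

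Enteroendocrine genes were above in 9 of 12 and below in 0. The granule protein Chga stood at 23444, 15467 and 5924 against 3823, 3935 and 3237 (log2FC 2.02 ± 0.45). The proglucagon gene Gcg stood at 9170.5, 7469.9 and 9925 against 2429.7, 1431 and 1800 (log2FC 2.22 ± 0.23). Sst, somatostatin, stood at 1544, 1187 and 1603 against 385, 209 and 185. All 3 were higher in each S100a8-high mouse, and Chga was highest in mouse 1. Nts, neurotensin, stood at 2585, 1534 and 48.6 against 0, 2.47 and 0, almost wholly in mice 1 and 7. Pyy, peptide YY, overlapped, at 7133, 6167 and 12834 against 6707, 5109.9 and 6915. Tuft cell genes were above in 4 of 9, or 8 of 9 without mouse 9, with the actin-binding Avil at 816, 979 and 561 against 273, 315 and 238. Of all 22238 fitted genes, 4003 were above, or 5394 without mouse 9. The channel Trpm5, highest in mice 1 and 7, stood at 939.6, 616 and 131 against 218, 299 and 129.

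The S100a8-high libraries were not alike. Of 1165 genes past the limits as higher with a mean of at least 100 normalized counts, 113 (9.7%) were over 2 times higher in mouse 9 than in both mouse 1 and mouse 7, against 20 for mouse 1 and 6 for mouse 7 set against the others. In 80 of them mouse 9 was under 0.5 times both, as was mouse 1 in 80 and mouse 7 in 27. Differences over 10-fold were mostly of one kind: mouse 9 was at less than 0.1 times both others in 23 genes, mouse 7 in 1 and mouse 1 in 0. These counts cover only genes past the limits, and the limits can drop genes with a wide spread within a set, such as Hoxb6. No like count was made over all fitted genes or within the S100a8-low set. The genes high in mice 1 and 7 and low in mouse 9 included Abca12, a lipid transporter best known from skin, at 24321, 24051 and 25.2 against 2.61, 0 and 0. Slc51a, a bile acid exporter subunit, stood at 5784, 4074 and 6.3 against 2.61, 4.95 and 13.9. The intestinal alkaline phosphatase gene Alpi stood at 1881, 1278 and 74.7 against 22.6, 28.9 and 46.6. Malrd1, Prkg2 and H2-T3 behaved in the same manner, with Prkg2, a cyclic GMP-dependent kinase, at 8202, 3930.3 and 99 against 32.2, 29.7 and 35.3. Prap1 and Slc26a1 were also among the 10 genes of widest spread within the S100a8-high set.

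**Figure D3:**
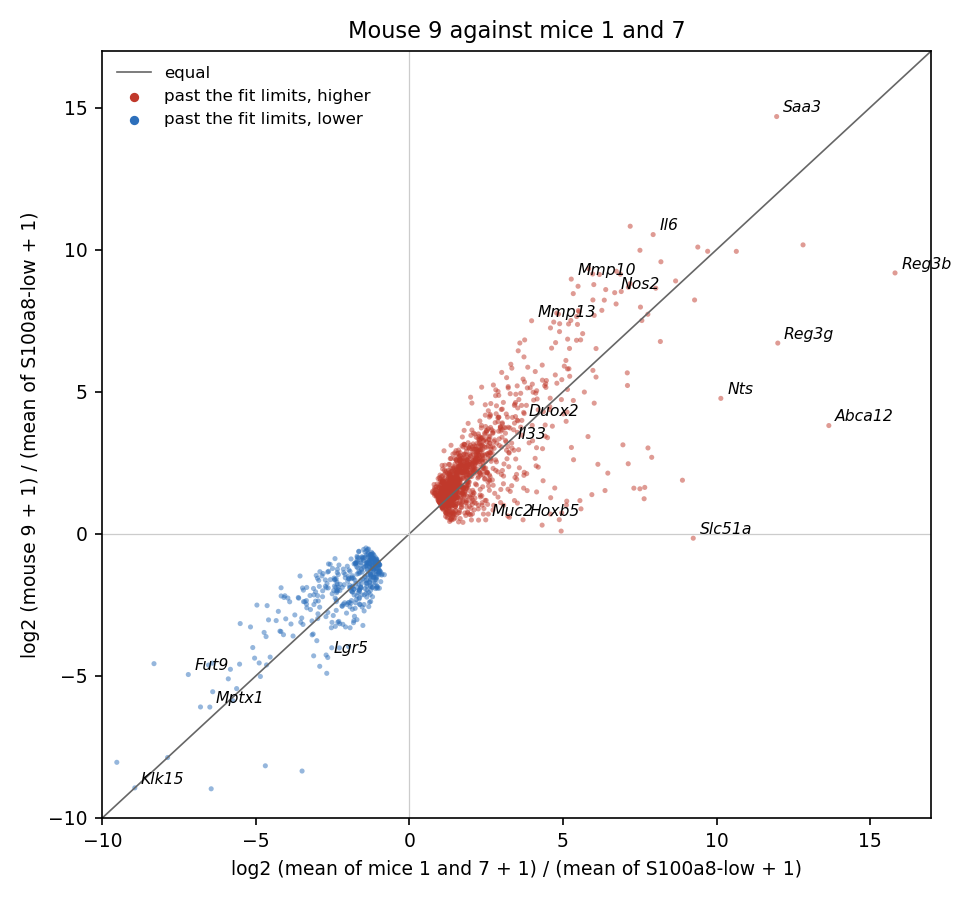
Log2 ratio to the mean of the S100a8-low libraries (normalized count + 1) of mouse 9 (vertical axis) against the mean of mice 1 and 7 (horizontal axis), for genes past the fit limits with a mean of at least 100 normalized counts, red for higher and blue for lower. Points on the line are equal in both; Reg3b, Abca12, Nts and Slc51a lie below it and Saa3, Il6, Mmp10 and Mmp13 above it.

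Drug and steroid metabolism genes were another group in which mouse 9 often lay apart from mice 1 and 7: 2 of 21 were above and 5 below, and without mouse 9 the number above was 8, where 5394 of all 22238 fitted genes were above against 4003 with it. Cyp2c55, a cytochrome P450 of the colon, stood at 253992, 243560.3 and 8415 against 54132, 57291 and 56681. Cyp2c65 stood at 23411, 18693 and 804 against 394, 421 and 498. Ugt1a1, the bilirubin glucuronosyltransferase, stood at 26600.3, 18209 and 443 against 948, 1313 and 1489.9. In Cyp2c55 and Ugt1a1 mouse 9 lay below the S100a8-low set, and in Cyp2c65 above it. Genes of fatty acid oxidation and butyrate use had a median log2FC of -0.02. In this list 1 of 17 was above and 4 were below, beside 18.0% and 15.2% of all fitted genes. Without mouse 9 the list had 7 above and 4 below, beside 5394 and 5212 of all 22238 fitted genes, and a median of 0.14. The butyrate carriers Slc16a1 and Slc5a8 were lower in every S100a8-high library. Slc16a1 stood at 21811, 24143 and 20966 against 45781, 46102 and 42585 (log2FC -1.01 ± 0.14). Slc5a8 stood at 22013, 14842 and 20939 against 49467, 41951 and 35794. Lower too was Ppargc1a, a coactivator of mitochondrial genes, at 3623, 2441 and 1474 against 5321, 10485 and 10659.

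Hox genes, which record position along the gut, moved with the sets and divided the S100a8-high set as well. Of 9 measured posterior Hox genes (paralog groups 10 to 13 and the lncRNA Hottip), 8 were below in each S100a8-high library and 1 above, with a median log2FC of -2.23 that was -2.89 without mouse 9. Their summed level was 5379.9, 6769 and 21341 in the S100a8-high set and 45757, 51439 and 53047 in the S100a8-low set. Hoxd13 stood at 619, 1296 and 1472 against 7619, 7848 and 9399 (log2FC -2.89 ± 0.33). Hoxd12 stood at 54, 88.5 and 54 against 648, 610.4 and 645 (log2FC -3.29 ± 0.29). In both, the 3 S100a8-high mice lay far below the S100a8-low set. Hoxb13 stood at 2471, 2897 and 13692 against 28174, 30119 and 30034. Hoxa13 stood at 461, 642 and 3011 against 3081, 4817 and 4467. In both, mouse 9 lay between mice 1 and 7 and the S100a8-low set. Hoxa11 was the member that lay above, at 227, 292 and 335 against 184, 137 and 159. Hoxb3 to Hoxb8, of the anterior and middle groups, were high in mice 1 and 7 and much closer to the S100a8-low level in mouse 9. Hoxb6 stood at 3236, 2723 and 63.9 against 117, 89.9 and 125. Hoxb5 stood at 1549.6, 1596 and 169 against 147, 92.4 and 121. Hoxb8 stood at 263, 267 and 24.3 against 5.23, 0 and 13.9. Hoxb9 differed from these neighbours, at 3128, 2223 and 965 against 1907, 1481 and 1622 (log2FC 0.33 ± 0.39), with mouse 9 below every S100a8-low library. Of 17 measured anterior and middle Hox genes, 6 were above and 1 below, or 10 and 5 without mouse 9. The gene below was Hoxa3, at 419, 493 and 881 against 1056, 1018 and 1489. Hoxa9 was low in mice 1 and 7 and overlapped in mouse 9, at 222, 379 and 1371 against 1287, 1574 and 1789 (log2FC -1.25 ± 0.62). Cdx2, the intestinal homeobox gene, stood at 12701, 11069 and 3808 against 1411, 1216 and 1228. The study describes its colon profiles as being of the whole organ, and whether all of it or a stretch went into each RNA extraction is not given in the sources used here. S100a8 and the Hox genes differed together in mice 1 and 7, and the part of position along the colon in the differences was not tested. Overlapping antisense transcripts in the Hox clusters add to the uncertainty of single genes, since the authors' quantification used no strand.

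**Figure D4:**
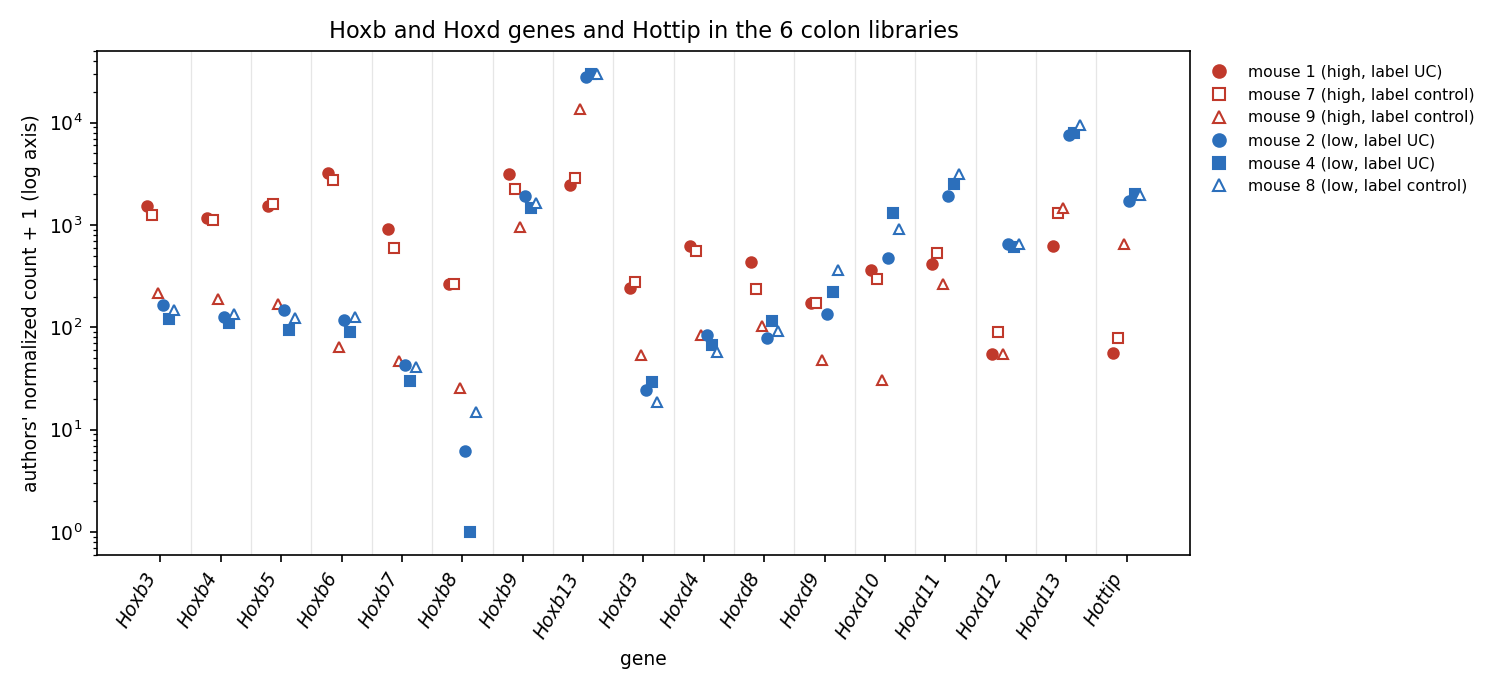
Authors' normalized count plus 1 (log axis) of the Hoxb and Hoxd genes and Hottip in each colon library, red for S100a8-high, blue for S100a8-low, filled for label UC and open for label control. Mice 1 and 7 lie together and apart from the 3 S100a8-low libraries in Hoxb3 to Hoxb8, Hoxb13, Hoxd12 and Hottip, mouse 9 lies near the S100a8-low libraries in Hoxb4 to Hoxb7 and with mice 1 and 7 in Hoxd12 and Hoxd13.

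Genes of other tissues and conditions were checked by list. Over all fitted genes 18.0% were above and 15.2% below, the shares to read beside these counts. Unfolded protein response genes were above in 6 of 12 by little, with the chaperone Hspa5 at 34313, 46996 and 54778 against 25418, 24601 and 21475, and red cell genes in none of 8. Squamous epithelium genes were above in 4 of 11, among them Abca12 and the desmosomal Dsg3, and below in 2, while the basal keratin Krt14, at 218, 55.6 and 54 against 90.6, 55.3 and 118, overlapped. Small intestine genes were above in 1 and below in 1 of 7, or 3 and 2 without mouse 9, pancreas genes below in 1 of 4, and skeletal muscle genes above in 3 and below in 2 of 8. Of 13 male reproductive tract genes, which would mark carried-over tissue, 1 passed the filter on low counts, and the list summed to 823, 525 and 0 against 19.2, 38.8 and 59.2, highest in mice 1 and 7. The part of these in the differences was not tested.

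Of 1997 fitted long noncoding RNA genes, 51 (2.55%) were past the limits as higher and 67 (3.36%) as lower. Of 15766 protein-coding genes, 1294 (8.21%) were higher and 396 (2.51%) lower, and these differences were not tested. Malat1 and Neat1, abundant nuclear RNAs, overlapped, Malat1 at 879833, 960581 and 602373 against 848883, 917288 and 1185219. Meg3, a maternally expressed RNA, stood at 5305, 5851 and 5837 against 3301, 2341 and 1451 (log2FC 1.25 ± 0.28). Dnm3os, the host of a microRNA cluster, stood at 449.9, 692 and 935 against 286, 174 and 221. Both were higher in each S100a8-high library, and Meg3 was near even among those mice. Of the unnamed lncRNA genes, 2310069B03Rik was the most even of those above, at 547, 436 and 326 against 21.8, 35.5 and 8.82 (log2FC 4.27 ± 0.51). BB123696 stood at 512, 185 and 129.6 against 0, 13.2 and 0. Below the S100a8-low set lay Gm15401, at 685, 962 and 1654 against 8779, 8667 and 7917 (log2FC -2.95 ± 0.32). Gm48832 lay below as well, at 128, 62 and 139 against 684, 1184 and 1403. Gm17322 did so at 0, 10.1 and 9.9 against 353, 612 and 576, and in these 3 genes no S100a8-low library was near an S100a8-high one. Hoxa11os, antisense to Hoxa11, stood at 265, 343 and 1867 against 3704, 3986 and 4868, opposite in direction to Hoxa11 and with mouse 9 between.

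The disease label, which the rule did not make, was tested with the S100a8 set as a term in the same edgeR model. The set term comes from the rule, so the test is not free of it. Since the labels themselves are in doubt, it is a test of the labels as deposited and not of DSS against water. It left 1 gene of 22238 (0.0045%), Gm26712 (GRCm38 chr6:57689433-57689649), higher in libraries labelled UC (log2FC 7.13 ± 0.34 SE, adjusted p = 0.0135, edgeR quasi-likelihood test with Benjamini-Hochberg adjustment). Gm26712 stood at 457, 3.79 and 2.7 in the S100a8-high set and at 566, 587 and 3.78 in the S100a8-low set, so it was high in the 3 libraries labelled UC, mice 1, 2 and 4, and near 0 in the others. It lies within an exon of Pyurf, and counts of overlapping genes can be divided between them. At an unadjusted p under 0.05 the label had 493 genes (2.22%), a smaller share than that limit would give with no effect of the label. DESeq2 with the same terms called 17. With each of the 6 libraries left out in turn, no gene passed in any of the 6 fits. With the label and the set both in the model, few degrees of freedom remain, and fewer with a library left out. These fits could therefore miss real differences.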

How the data were processed

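Total RNA was sequenced from colon after removal of ribosomal RNA. Per the study's methods the authors trimmed the reads with Flexbar, removed ribosomal reads with bbduk, mapped to GRCm38 with STAR and quantified Ensembl genes with StringTie 1.3.4c (version per the submitters' processing notes) at default options, which set no strand. The deposited gene counts are whole numbers that the authors derived from transcript coverage, so overlapping genes and near copies share them. The deposited normalized signal values are those counts after the authors divided them by 1 factor per library, from 0.791 to 1.21 in the colon, and 155 counted genes are outside that table. Genes outside it held 8.63% to 16.0% of the counts of the S100a8-high libraries and 10.6% to 18.7% of the S100a8-low ones. With only the genes of that table fitted, 1948 were past the limits. Coordinates and gene types are from GENCODE vM21, promoters from RefSeq on GRCm38.p6.

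Here the S100a8 rule was applied to the normalized table and the 6 colon columns of counts were fitted in R 4.3.3 with edgeR 4.0.16 (TMM, filterByExpr, glmQLFit, glmQLFTest, Benjamini-Hochberg). Total counts of the 6 libraries ran from 69181049 to 103662306 and the biological coefficient of variation was 0.345, so spread between mice, not counting error, sets the precision. Each SE was taken as log2FC over the root of the F statistic. A gene at 0 in a whole set got a bound against 3 counts per library. Such a gene could pass the filter only through the other set, so its place above or below in a list count was fixed on entry. The steps were checked on simulated data with 200 genes changed 4-fold, drawn from the means of these libraries. The simulated spread between libraries was smaller than that of the data, so the check does not tell how many changes these data could show. The sets were selected on the readout, so no p-value of that contrast is printed. The disease label, which the rule did not make, was tested with the set as a term.

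The members and the 31 lists (469 of 471 genes found by symbol; the identifier with the highest colon total where a symbol had several) were chosen with earlier results of these data known. Lists are described by members whose sets do not overlap, a measure chosen after the values were seen. lncRNA genes are the GENCODE lincRNA, antisense and related types. Named genes are, for each list, its 4 most abundant members and its extremes at a mean of at least 100, then the 10 largest differences each way over all genes, 5 each way for lncRNA genes, the 10 widest and 5 widest spreads within the S100a8-high and S100a8-low sets, and genes called for the label. Some genes that the rule takes are not reported here. Beyond this rule, Axin2, C1qa, C3, Car2, Ccl2, Ccl20, Ccl8, Ccr2, Cd8a, Cdx2, Cx3cr1, Cd79a, Cd79b, Cr2, Cxcl1, Cxcl10, Cxcl2, Cyp2c65, Dsg3, Duox2, Duoxa2, Guca2a, Hbegf, Hoxb5, Hoxb8, Ifit1, Il11, Il22, Krt14, Meg3, Mmp13, Mmp3, Ms4a1, Nos2, Osm, Pax5, Ppargc1a, Pyurf, Retnlb, Rnf43, Scnn1g, Slc9a3, Slpi, Sst, Timp1 and Ugt1a1 were picked with their values known. Tried in addition were RLE or library size scaling, other filters, DESeq2 1.42.0, limma-voom (limma 3.58.1), robust dispersion, other limits, the label as a term, genes of the normalized table, and each library left out.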

Additional observations from a re-analysis of the deposited data

How the results depend on the processing

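The count of genes past the limits between the S100a8 sets, 1963 (1449 higher, 514 lower), was 2981 (2178 higher, 803 lower) with DESeq2, 1028 (709 higher, 319 lower) with the disease label as a term and 375 (274 higher, 101 lower) at an adjusted p of at most 0.01. With each library left out in turn it ran from 380 without mouse 8 to 2226 without mouse 9, and from 269 to 1565 for higher and from 111 to 661 for lower genes. No gene past the limits changed direction in any of these fits. That could hardly have come out otherwise, since 1445 of the 1449 higher genes and all 514 lower genes had sets that did not overlap. The count of genes past the limits stayed within 1.5 times under the other scalings, filters and tests. The count for the label with the S100a8 set as a term was 17 with DESeq2 and 0 in each fit with a library left out, against 1. With the label as a term the posterior Hox median was -2.72. With each library left out, list medians of log2FC ran from 4.04 to 6.18 for neutrophil, 3.46 to 4.77 for chemokine, 1.88 to 2.53 for T cell, -0.79 to -0.10 for absorptive colonocyte, -0.75 to 0.51 for proliferation, -0.036 to 0.77 for squamous epithelium and -2.89 to -2.20 for posterior Hox genes. Of 279 alternative list medians, 270 moved by less than 1 SD between mice, and of 1447 alternative values of named genes 1406 did. Such small moves were close to built in, since leaving out 1 of 3 mice can hardly shift a set's mean by 1 SD. These shares therefore say little of stability, and the cause of the larger moves was not tested. No paired analysis was possible because the colon sets compared hold different mice and share no replicate number. With 3 mice in a set and sets selected on 1 gene, these values describe 6 libraries.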
